A study of Mus musculus with 6 samples.

Results

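The suppressors of cytokine signalling (SOCS proteins) and a pair of phosphatases that act on the same pathway were followed by their mRNA in regulatory T cells (Treg cells) taken from mouse tumours. The group holds 10 genes, Socs1 to Socs7, Cish, Ptpn2 and Ptpn6. They were found by their symbols in the GENCODE M21 annotation among 54446 genes in each count table. All 10 passed the filter on low counts.

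When a cytokine such as interleukin-2 binds its receptor, Janus kinases (JAKs) phosphorylate the receptor and the STAT transcription factors, which then switch on target genes. Several SOCS genes are among those targets, so their proteins close a feedback loop: they bind phosphorylated receptors or the kinases themselves and, through a SOCS box, recruit a ubiquitin ligase. Treg cells depend on interleukin-2 and STAT5, and SOCS mRNAs have been described as carriers of N6-methyladenosine (m6A), the mark that the reader protein YTHDF2 binds to promote mRNA decay.

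Total RNA was read in 6 libraries of live CD45+ CD4+ GFP+ cells sorted from subcutaneous tumours of the melanoma cell line B16F10. In 3 control libraries the mice were Foxp3CreYthdf2fl/+, so they too carried the Cre recombinase and 1 floxed Ythdf2 allele. In 3 libraries labelled Ythdf2 cKO, called cKO below, the mice were Foxp3CreYthdf2fl/fl. The Foxp3 gene drives the Cre, so the deletion is aimed at Foxp3+ cells, and both groups were sorted through Foxp3-GFP. Cage 1 held the mice of control replicates 1 and 2 with cKO replicate 1. The mice of cage 2 were those of control replicate 3 with cKO replicates 2 and 3. The labels give no ages. Whether every library is its own animal is not stated, so the p-values describe the spread between these samples, some of which may be technical.

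The libraries held 5602053 to 13602069 gene counts, and single members were read 80 to 3977 times per library. Values below are CPM, read counts as a share of the library's size after scaling by TMM, a method that sets libraries to a common level over most genes. Ythdf2 itself did not separate the labels: it was at 124, 102 and 93.1 CPM in control replicates 1 to 3 and at 90.1, 104 and 104 CPM in the cKO libraries (log2 fold change -0.10, standard error 0.16, edgeR adjusted p = 1). The counts cover all exons, the deleted exons are not stated in the labels, and directions below are those of the labels. The genes that define the sorted cells were present in every library, with Foxp3 between 325 and 608 CPM.

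The libraries of the 2 cages stood apart in their cell content. The summed level of 15 melanoma markers was 207 to 757 CPM in cage 1 and 3067 to 6041 CPM in cage 2, and 13 of the 15 were called higher in cage 2. The sum of 14 macrophage and monocyte markers was 9.83 to 106 CPM in cage 1 and 155 to 552 CPM in cage 2, with 6 of 11 tested markers called higher. In cKO replicate 2 of cage 2, Apoe alone held 137 of the 155 CPM, and C1qa, C1qb and Itgam were at 0. The cages overlapped in the mean log2 CPM of the 11 tested markers. It was 0.43 in that library and 2.31 in control replicate 2 of cage 1. The sum of 8 Treg and T cell markers was 6067 to 6766 CPM in cage 1 and 3644 to 5033 CPM in cage 2, with 6 of 8 called lower. No melanoma or macrophage marker was at 0 in all 6 libraries. Of 3 tested fibroblast markers, 2 were called higher in cage 2. Their list summed to 57.1 CPM in control replicate 3 and 117 CPM in cKO replicate 3, but to 8.97 CPM in cKO replicate 2. In cage 1 that sum was 2.64 to 9.01 CPM. Of 6 erythroid markers 2 were called higher, with a sum of 149 CPM in cKO replicate 2. Mitochondrial genes held 10.6% to 13% of gene counts in cage 1 and 19.4% to 45.1% in cage 2, with control replicate 3 the highest. Fewer T cells and less of an mRNA per T cell cannot be told apart in such bulk libraries.

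Per kilobase of merged exons, which allows levels of different genes to be compared, Cish had the highest mean of the 10 over all libraries. Its mean level was 38.5 ± 11.7 CPM per kilobase (SD over 6 libraries), which placed it at percentile 93.1 of the tested genes. Ptpn6 followed at 34.0 ± 10.1, Socs3 at 29.0 ± 10.6 and Ptpn2 at 23.8 ± 3.94 CPM per kilobase, and the ranges of these neighbours overlapped. In cKO replicates 2 and 3 Ptpn6 was above Cish, at 35.6 against 31.2 and at 30.7 against 29.9 CPM per kilobase. The lowest library of Ptpn2 (20.4 CPM per kilobase) lay above the highest library of Socs1 (17.1 CPM per kilobase). Socs1 had a mean of 11.7, Socs4 of 8.27, Socs2 of 5.09, Socs7 of 4.96 and Socs5 of 4.55 CPM per kilobase, again with overlapping neighbours. Socs6 was lowest at 1.13 ± 0.322 CPM per kilobase, percentile 17.9, and its highest library (1.59) lay below the lowest of Socs5 (2.85). The scale depends on the annotated exons, which include those of transcripts that code for no protein. Merged exons span 9531 bases for Socs2 and 3125 for Ptpn2, against 2222 and 1568 in 1 principal GENCODE transcript. For Socs1 both lengths are 2908 bases. The order of the members therefore holds for this scale only, and levels per principal transcript were not computed.

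Across the 6 libraries Ptpn6 varied most among the 10, with its highest library 2.69 times its lowest, and Ptpn2 and Socs7 least, at 1.44 times each. Over the 9964 tested genes with a mean of at least 5 CPM the median of this ratio was 1.85. The plot of CPM by library shows that circles (cage 1) and squares (cage 2) separate for Cish, while the 2 genotypes overlap in every panel.

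**Figure D1:**
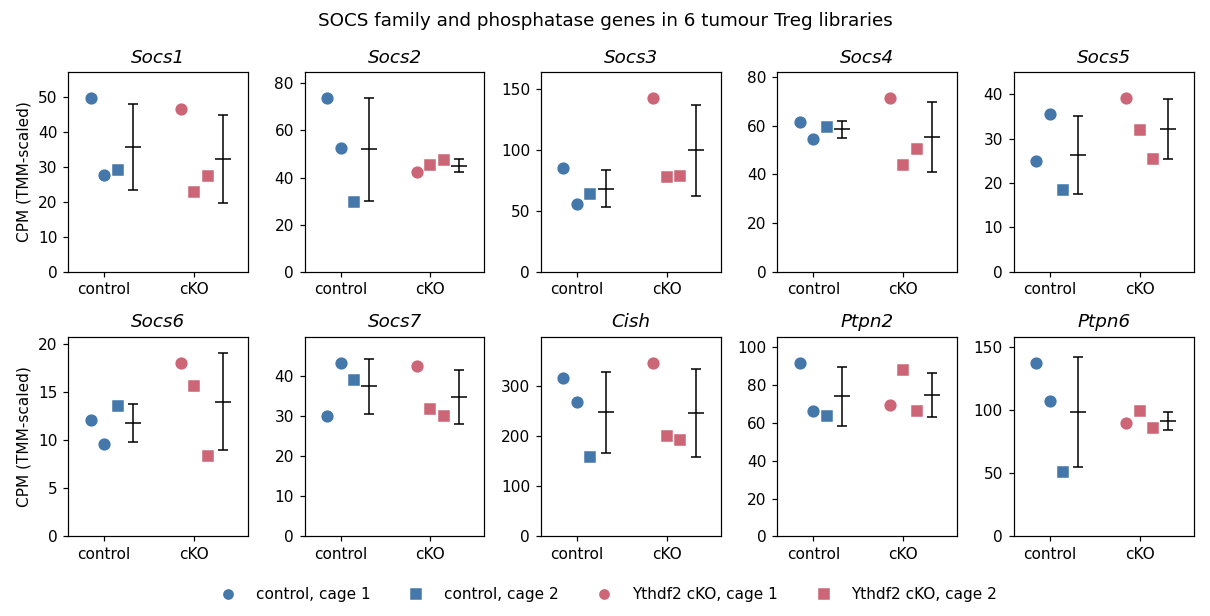
CPM (y axis, TMM-scaled, from 0) of the 10 genes in each library, by genotype (x axis; blue control, red Ythdf2 cKO) and cage (circles cage 1, squares cage 2), with the mean and SD of 3 libraries beside each group. For Cish all 3 circles lie above all 3 squares in CPM, from 269 to 347 against 158 to 200.

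The design asks what changes in tumour Treg cells when Ythdf2 is deleted. None of the 10 genes passed the test between the genotypes. With the edgeR quasi-likelihood test and Benjamini-Hochberg adjustment over 13172 genes, 0 of 10 passed the threshold of 0.05 (adjusted p = 1 for each), and over all genes 0% passed. At an unadjusted p under 0.05 there were 0 of 10, against 1.62% of all genes, and DESeq2 and limma-voom also called 0 of 10. For 0 of 10 genes were the 2 groups free of overlap, against 7.62% of all genes. Their median log2 fold change was -0.046, and -0.0049 over all genes tested.

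Cish encodes CIS, a feedback inhibitor that STAT5 induces downstream of interleukin-2. The gene (ENSMUSG00000032578, chromosome 9, 107296026 to 107302784, mm10) was at 316, 269 and 158 CPM in control replicates 1 to 3. In cKO replicates 1 to 3 it was at 347, 200 and 192 CPM. The group means were nearly equal, at 248 ± 81.3 and 246 ± 87.0 CPM (SD, n = 3), while the spread inside each group was large and followed the cage. The fitted log2 difference was -0.0093 (standard error 0.32, 95% interval -0.76 to 0.74). Antisense partners overlap the gene, and no label states the strand setting of the counting. They were read far less often: Gm17040 had 102 and Gm17041 56 counts over all libraries, against 14598 for Cish.

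The letters of the STAT consensus, TTCNNNGAA, were searched in the 300 bases around RefSeq start sites (250 before and 50 from the start on, GRCm38.p6), since Cish and Socs3 are textbook STAT targets. The consensus reads the same on both strands. Of the 10 genes, 5 had such a window. Cish held 2 matches, at 1 and 12 bases from its start site, Socs3 held 1, at -154, and Socs1, Socs4 and Ptpn6 held 0 in these windows. Of 32851 windows, 8.3% held at least 1 match and 0.457% held 2 or more. The 30 bases around the matches are shown for the 2 genes that held a match, with the consensus in capitals. A match describes letters and is not evidence of binding. The Cish stretch is chr9:107296654-107296683 on the plus strand, inside the GENCODE bounds of the gene, and the Socs3 stretch is chr11:117969502-117969531 on the minus strand.
Cish: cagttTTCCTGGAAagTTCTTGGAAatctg
Socs3: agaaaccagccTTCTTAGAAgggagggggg

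Socs2, the nearest relative of Cish and also a STAT5 target (ENSMUSG00000020027, chromosome 10, 95385362 to 95417180), was at 73.8, 52.4 and 29.8 CPM in control replicates 1 to 3. In the cKO libraries it was at 42.3, 45.5 and 47.5 CPM. The controls ran from the highest to the lowest of all 6 libraries and enclosed the narrow range of the other group. Its log2 fold change was -0.21 with a 95% interval from -0.94 to 0.52.

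Socs1 and Socs3 are the members whose proteins also inhibit the kinases directly. Socs1 (ENSMUSG00000038037, chromosome 16, 10782240 to 10785536) restrains interferon-gamma and interleukin-2 signals. It was at 49.7, 27.8 and 29.2 CPM in control replicates 1 to 3 and at 46.5, 22.8 and 27.5 CPM in the cKO libraries. Replicate 1 was the high library in both groups, and the groups overlapped (log2 fold change -0.15, 95% interval -0.96 to 0.67).

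Socs3 (ENSMUSG00000053113, chromosome 11, 117966079 to 117970047), the brake on STAT3 signals such as those of interleukin-6, had the largest genotype difference of the 10. It was at 85.4, 55.5 and 63.9 CPM in control replicates 1 to 3. In cKO replicates 1 to 3 it was at 143, 77.7 and 78.5 CPM. One library, cKO replicate 1, stood well above the rest, and control replicate 1 lay above the other 2 cKO libraries. The means were 68.3 ± 15.4 and 99.6 ± 37.3 CPM (SD, n = 3), and the log2 fold change of 0.54 (standard error 0.29, 95% interval -0.13 to 1.22) did not pass (edgeR adjusted p = 1). Without cKO replicate 1 it was 0.19.

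Socs4 and Socs5 are best known for acting on the epidermal growth factor receptor, and Socs6 and Socs7 have been studied mostly in receptor tyrosine kinase and insulin signalling. Socs4 (chromosome 14, 47276931 to 47296102) was at 61.4, 54.4 and 59.6 CPM in the controls and at 71.4, 43.9 and 50.5 CPM in the cKO libraries, which lay on both sides of the controls. Socs5 (chromosome 17, 87107679 to 87137839) was at 25.0, 35.6 and 18.3 CPM in the controls and at 39.1, 31.8 and 25.4 CPM in the other group (log2 fold change 0.28, 95% interval -0.42 to 0.99). Its groups overlapped, and control replicate 3 was lowest. Socs6 (chromosome 18, 88665224 to 88927481) ran from 9.61 to 13.6 CPM in the controls and from 8.30 to 18.0 CPM in the cKO libraries. Socs7 (chromosome 11, 97362551 to 97398542) ran from 29.9 to 43.2 CPM and from 30.0 to 42.4 CPM. For Socs6 the cKO libraries lay on both sides of the controls, and for Socs7 the ranges overlapped almost fully. The log2 fold changes were 0.25 and -0.11.

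The phosphatases remove the phosphate marks that the kinases add. Ptpn2 (ENSMUSG00000024539, chromosome 18, 67665511 to 67724595), which acts on JAK1, JAK3 and STAT5, was at 91.8, 66.4 and 63.6 CPM in the controls and at 69.4, 88.1 and 66.4 CPM in the cKO libraries. Each group held 1 high library, in cage 1 for the controls and in cage 2 for the others. Ptpn6 (ENSMUSG00000004266, chromosome 6, 124720707 to 124738714) encodes SHP-1, which inhibitory receptors of blood cells recruit. It was at 138, 107 and 51.3 CPM in the controls and at 89.8, 99.9 and 86.1 CPM in the cKO libraries. The controls again spanned both extremes. The log2 fold changes were 0.014 (95% interval -0.46 to 0.49) for Ptpn2 and -0.11 (95% interval -0.87 to 0.66) for Ptpn6.

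**Figure D2:**
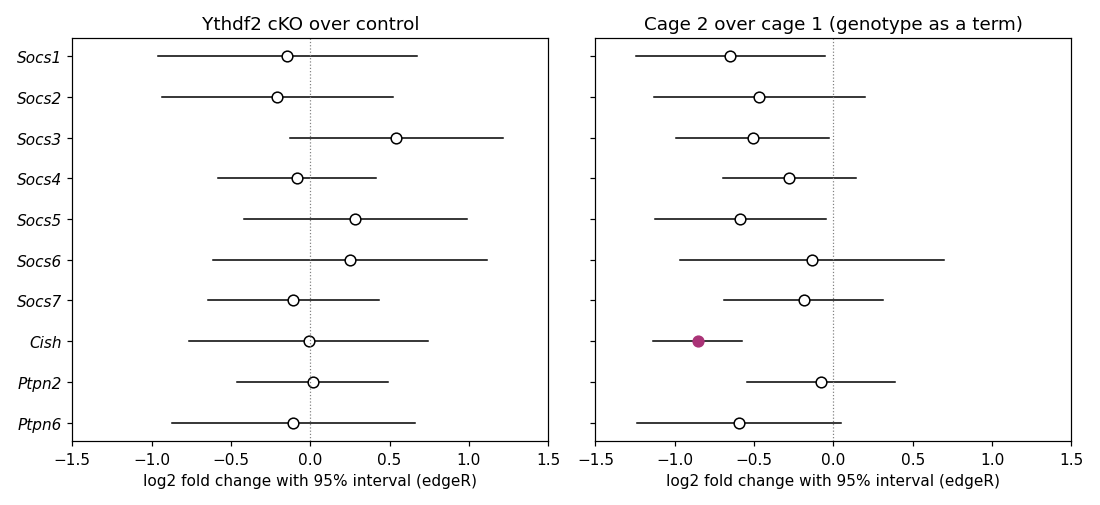
Log2 fold changes (x axis) with 95% intervals from the edgeR fits, for the genotype (left) and for cage 2 over cage 1 with the genotype as a term (right). A filled point has an adjusted p under 0.05; all 10 genotype intervals cover 0, and Cish between cages (-0.86) is the filled point.

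Because both genotypes occur in both cages, the members were also compared within cages. The order of single libraries inside a cage was looked at after the values were seen. For 3 of 10 genes, Cish, Socs3 and Socs5, every cKO library lay above every control of its own cage, where 14.5% of all genes did so. For 0 of 10 did every such library lie below, against 18.5% of all genes. With cage as a term, the genotype log2 fold change of Socs3 was 0.66 (standard error 0.21, edgeR unadjusted p = 0.0128, adjusted p = 0.45), that of Socs5 0.50 (adjusted p = 0.50) and that of Cish 0.28 (standard error 0.12, adjusted p = 0.49). None passed the threshold, and 1 of 10 had an unadjusted p under 0.05 in that fit, against 10.2% of all genes. For Socs3 the difference was 1.05 within cage 1 and 0.29 within cage 2, as differences of mean log2 CPM with 1 library in 1 arm of each. For Cish these were 0.25 and 0.31.

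For 7 of 10 genes the difference between genotypes had opposite signs in the 2 cages, against 44.6% of all genes tested. Cish, Socs3 and Socs5 were above 0 in both. Socs1, Socs4, Socs6 and Socs7 were above 0 within cage 1 and below 0 within cage 2, and Ptpn2, Ptpn6 and Socs2 the other way round. Ptpn6 had a difference of -0.44 within cage 1 and 0.85 within cage 2, and Socs2 of -0.56 and 0.64. Control replicate 3, the single control of cage 2, was the lowest library for both genes. A test of whether the genotype difference differed between cages gave adjusted p = 0.20 for Ptpn6 and 0.26 for Socs2 (edgeR interaction term, unadjusted p = 0.00318 and 0.0125), and 0 of 10 genes passed, against 0.0456% of all genes. These were the 2 of 10 with an unadjusted interaction p under 0.05, against 14.3% of all genes.

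Between the cages, Cish was lower in cage 2. Its level was 311 ± 39.1 CPM in cage 1 and 183 ± 22.6 CPM in cage 2 (SD, n = 3 each), so all 3 libraries of cage 1 lay above all 3 of cage 2. In the fit that holds the genotype as a term, the log2 fold change was -0.86 (standard error 0.12, 95% interval -1.14 to -0.58), a level 1.81 times lower in cage 2 (edgeR adjusted p = 0.00344). It passed in each of 14 alternatives, with values from -1.19 to -0.76 and adjusted p from 4.17e-09 to 0.0308. Cish was the 1 of 10 genes called lower, where 3.68% of all genes were called lower, 7.83% higher and 11.5% in either direction. It was also the 1 of 10 whose cages did not overlap, with cage 2 lower, against 12.2% of all genes with cage 2 lower and 27.3% in either direction. Over all genes 1031 were called higher and 485 lower in cage 2, whereas scaling by total counts alone gave 646 and 732. Leaving out each library in turn gave 595 to 919 higher and 65 to 376 lower, both lowest without cKO replicate 3.

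The other 9 genes all had a log2 fold change below 0 between cages and did not pass. Values below 0 were found for 10 of 10 members and for 49.2% of all genes tested, and the median of the members was -0.49 against 0.013 over all genes. Socs1 was at 41.4 ± 11.8 CPM in cage 1 and 26.5 ± 3.33 CPM in cage 2 (log2 fold change -0.65, edgeR adjusted p = 0.15). For Socs5 the log2 fold change was -0.59 (adjusted p = 0.16), for Socs3 -0.51 (adjusted p = 0.17) and for Ptpn6 -0.59 (adjusted p = 0.22). The value of Ptpn6 rested on single libraries: it was -1.27 without cKO replicate 1 and 0.068 without control replicate 3. Socs3 passed with total-count scaling (edgeR adjusted p = 0.043), and Socs3 and Ptpn6 passed with no low-count filter (adjusted p = 0.024 and 0.016). The remaining values ran from -0.47 for Socs2 to -0.080 for Ptpn2. At an unadjusted p under 0.05 there were 4 of 10, all lower, against 11.5% of all genes lower at that level and 26.5% in either direction. The count below 0 was 7 of 10 without control replicate 3 and also 7 of 10 without cKO replicate 1. The first of these fits takes the cage difference from cKO libraries alone, with 1 in cage 1. The second takes it from controls alone, with 1 in cage 2.

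T cell genes moved with the cage in the same direction. The summed level of Cd3e, Cd3g and Cd4, chosen after the values were seen, was 1427, 1634 and 1583 CPM in the libraries of cage 1 and 874, 1184 and 1014 CPM in those of cage 2. Foxp3 had a cage log2 fold change of -0.65 (edgeR adjusted p = 0.00913). Set against the summed T cell genes, Cish stood at 22.2, 16.5 and 21.9 CPM per 100 CPM in cage 1 and at 18.0, 16.9 and 18.9 in cage 2. On this scale the cages overlapped, with means of 20.2 and 18.0. Of the other members, only Ptpn2 did not overlap between cages on this scale, with a mean of 4.96 in cage 1 and 7.09 in cage 2. The share of all genes without overlap on this scale was not computed. Means on this scale were lower in cage 2 for Cish and Socs1 (log2 ratios -0.17 and -0.027) and higher for the other members. Their log2 ratios ran from 0.058 for Ptpn6 to 0.52 for Socs6, the reverse of their direction in CPM. The part of RNA from melanoma cells, macrophages and other cells in the cage difference of Cish was not tested. With mitochondrial genes left out before scaling, an alternative chosen after the data were seen, the Cish difference was again -0.86 (edgeR adjusted p = 0.00307).

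**Figure D3:**
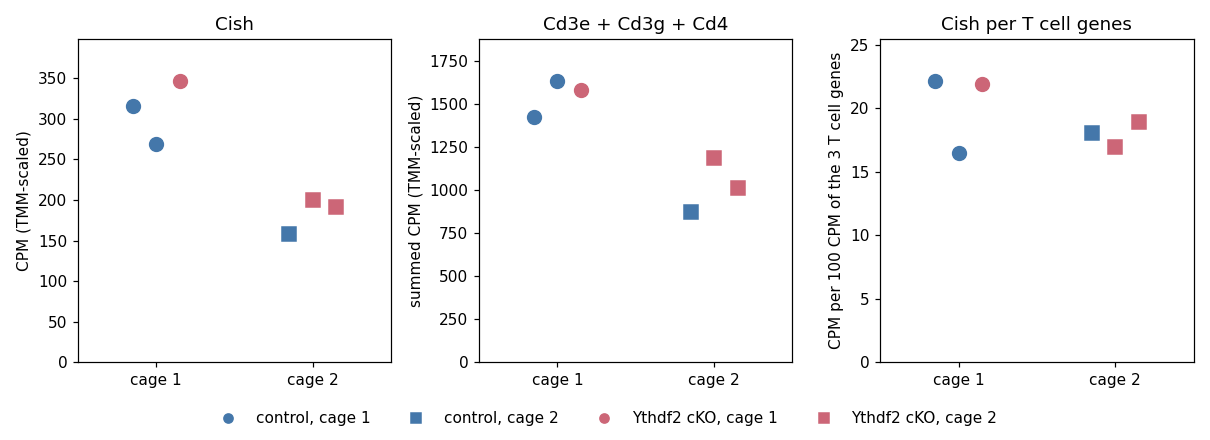
Cish CPM (left), the summed CPM of Cd3e, Cd3g and Cd4 (middle) and Cish CPM per 100 CPM of these 3 genes (right) in each library, by cage (x axis), with genotype by colour and all y axes from 0. Cish and the T cell sum are both lower in all 3 libraries of cage 2, while the ratio overlaps, at 16.5 to 22.2 in cage 1 and 16.9 to 18.9 in cage 2.

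The other genes of the pathway were described through 6 lists of 59 genes, all of which were tested. Between genotypes 0 of 59 passed with edgeR, 0 at an unadjusted p under 0.05. Between cages 10 of 59, or 16.9%, were called, all lower in cage 2, against 11.5% of all genes in either direction and 3.68% lower. Of the 8 Treg and T cell markers 6 were called lower. Their median cage log2 fold change was -0.65, lower than the median of any of the 6 lists. Whether the lists differ from T cell genes in general was not tested. Each of the 10 calls was lost in at least 1 alternative. Left out in turn, cKO replicates 2 and 3 ended 2 and 9 of them, and control replicates 1 and 2 ended 3 and 7. Calls were also lost without cKO replicate 1 and without control replicate 3. Those 2 fits take the cage difference from 1 genotype alone, with 1 library in 1 cage. With cage as the only term 7 of the 10 were lost, and with limma-voom 2. The call of Pim1 was lost in 1 alternative, without cKO replicate 1.

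Of the Janus kinases, which SOCS proteins restrain, 1 of 4 was called lower in cage 2, against 3.68% of all genes. Jak3, the kinase of the shared gamma chain, was at 192, 206 and 122 CPM in control replicates 1 to 3 and at 223, 181 and 156 CPM in the cKO libraries (cage log2 fold change -0.55, edgeR adjusted p = 0.034). Jak1 had a value of -0.40 (adjusted p = 0.061). Of 6 STAT factors 0 were called, with a median of -0.40 and all 6 below 0. Stat5a, which carries the interleukin-2 signal, was at -0.49 (adjusted p = 0.092) and Stat4 at -0.61 (adjusted p = 0.19).

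Between cages 3.68% of all genes were called lower. Of 19 cytokine receptor chains tested, 15 were below 0 and 4 above, with a median of -0.57, and 5 were called lower. They were Il2rb and Il2rg, the signalling chains of the interleukin-2 receptor (cage log2 fold changes -0.57 and -0.66), Il12rb1 (-0.88), Il21r (-0.69) and Il9r (-1.16). Their edgeR adjusted p ran from 0.020 to 0.040. Il2rb was at 746, 872 and 536 CPM in control replicates 1 to 3 and at 955, 706 and 594 CPM in the other group, so its cages did not overlap either. Between genotypes Il7r, at 0.31, and Il12rb2, at 0.75, had the smallest p of this list and did not pass (adjusted p = 1).

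The partners that join the SOCS box in a ubiquitin ligase had no call. Of 9 tested, 0 passed between cages, 5 were below 0 and 4 above, and the median was -0.039. Ube2f, an enzyme that attaches NEDD8, was at -0.61 (edgeR adjusted p = 0.13), and Rnf7, the RING subunit that pairs with Cul5, at 0.56 (adjusted p = 0.15). Over all genes the median was 0.013.

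Among 12 other brakes on JAK and STAT signals, the median was -0.30, with 11 below 0 and 1 above. Of these, 2 were called lower in cage 2, against 3.68% of all genes. Ptprc, the CD45 phosphatase by which the cells were sorted, had a log2 fold change of -0.64 (edgeR adjusted p = 0.014) and Cbl, a ubiquitin ligase, of -0.64 (adjusted p = 0.017). Of 10 STAT5 targets, 7 were below 0 and 3 above, and the median was -0.34. Those above were Bcl2 at 0.27, Bcl6 at 0.17 and Id2 at 0.026. The list does not separate genes that STAT5 induces from those it represses. The 2 called lower were Pim1, a survival kinase, at -0.77 (edgeR adjusted p = 0.0051) and Lta, the lymphotoxin gene, at -1.89 (adjusted p = 0.044). Pim1 ran from 672 to 905 CPM in cage 1 and from 433 to 546 CPM in cage 2.

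**Figure D4:**
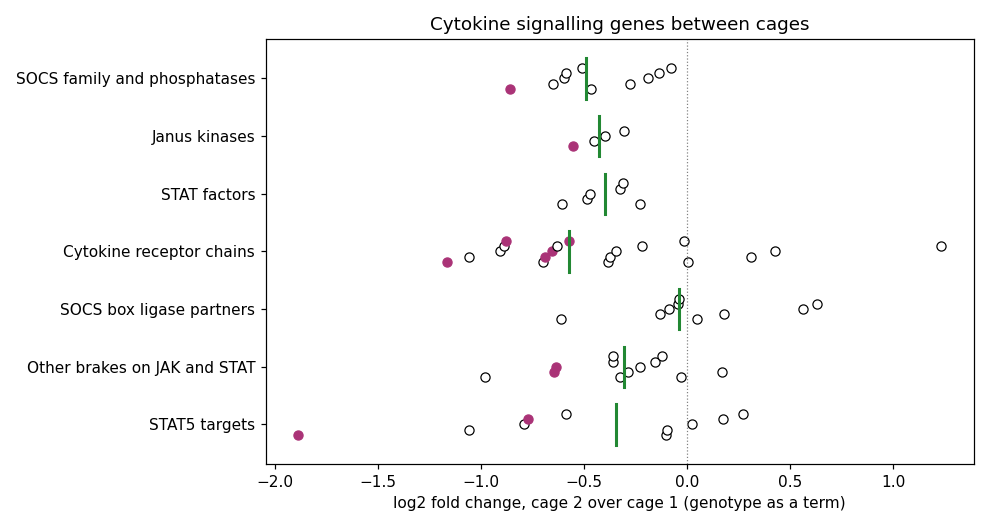
Log2 fold change of cage 2 over cage 1 (x axis, edgeR fit with the genotype as a term) for each gene of the 10 SOCS and phosphatase genes and of 6 cytokine signalling lists (rows); filled points have an adjusted p under 0.05 and green bars are medians. The medians lie between -0.57 for the receptor chains and -0.039 for the SOCS box partners.

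The genes whose levels over the 6 libraries were most like those of 4 members were found by the root mean square difference between log2 CPM deviations, among 9438 genes with a mean of at least 5 CPM, without pseudogenes and genes that carry only a Gm or Rik name. For Cish they were Rcsd1, Rgs14 and Ppp1r15a, with differences of 0.0621, 0.0672 and 0.0681, where the median over all genes was 0.475. Rcsd1 was at 212, 189 and 109 CPM in control replicates 1 to 3 and at 226, 125 and 134 CPM in the cKO libraries, the same high and low libraries as Cish. For Socs2 they were Ripk3, Pole and Sec11c (0.0709 to 0.0982), for Socs1 Nek4, Trerf1 and Egr3 (0.126 to 0.130) and for Socs3 Polr3gl, Acvr1b and Amdhd2 (0.115 to 0.142). With 6 libraries that share the cage pattern, such closeness is a description only.

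Because YTHDF2 binds m6A, the letters GGACT, a frequent m6A context, were counted on the sense strand of 1 principal GENCODE transcript per gene. All 10 members held at least 1, as did 91.8% of 11478 tested genes. Per kilobase, Cish held 1.4 (percentile 70), Socs2 1.35, Socs7 1.28 and Socs3 1.18, above the median of 1.05 over those genes. The other members lay below that median, from 0.901 for Ptpn6 to 0.344 for Socs1 and 0.291 for Socs4. No m6A was measured in these libraries, and a match is not a methylated site. The distance from a coding match to the stop codon was measured for Cish and Socs3 only, with no share over all genes. Socs2, Socs4 to Socs7, Ptpn2 and Ptpn6 held coding matches too. In Cish and Socs3 a coding match lay close to the stop codon, 61 and 73 bases before it, the region where m6A is known to be frequent. The 21 bases around each are shown with GGACT in capitals, from chr9:107300829-107300849 on the plus strand for Cish and chr11:117967616-117967636 on the minus strand for Socs3 (mm10).
Cish: gccgacgtGGACTgcctaccc
Socs3: ggccacctGGACTcctatgag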

How the data were processed

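The authors deposited 1 table of raw read counts per gene for each of 6 libraries, made with a stranded total RNA kit, per the labels' protocols. Trimmomatic 0.39, HISAT2 2.1.0, HTSeq, DESeq2 and mm10 are named, per the submitters' processing notes. Which annotation release and strand setting were counted is not given in the sources used here. Of 54446 genes, 54409 matched GENCODE M21 by identifier. Rows that name no gene were left out (24.6% to 35.8% of records lay in no gene). All pairs of libraries differed by more than sampling noise, with a chi-square of at least 16.84 per degree of freedom. Pairs with control replicate 3, the single control of cage 2, ran from 109.4 to 292.9, and all other pairs reached at most 67.46. The TMM factor of that library was 0.713, against 1.04 to 1.09 for the others.

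Genes were filtered with filterByExpr (minimum count 10, total 15), scaled by TMM and tested with the quasi-likelihood test of edgeR 4.0.16 in R 4.3.3, with the group as the only term, and for cages with group and cage. Adjustment was by Benjamini and Hochberg, at 0.05. Alternatives used DESeq2 1.42.0, limma-voom (limma 3.58.1), other scalings and filters, added terms and each library left out. Named list genes came from those past the threshold (at most 6) and the 2 with the smallest p per list and comparison. The members and lists were chosen with earlier results of these data known. One gene and 1 gene list are not reported here. Read counts are not independent molecules.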

Additional observations from a re-analysis of the deposited data

How the results depend on the processing

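The cage call of Cish passed in all 14 alternatives run, and no member was called between genotypes in any of the 16 alternatives with a test. Over all genes, the counts called higher and lower in cage 2 were 1550 and 799 with DESeq2, 646 and 732 with total counts as the only scale, 1474 and 873 with no low-count filter and 703 and 146 with cage alone in the model. Members called were then 2 with total counts (Socs3 at -0.84 with Cish) and 3 with no filter (Socs3 at -0.54 and Ptpn6 at -0.62 with Cish). Leaving out each library in turn gave 595 to 919 higher and 65 to 376 lower. Ptpn6 was at -1.27 without cKO replicate 1, where the cage difference came from controls alone, with 1 in cage 2. Total counts shifted the median of all genes to -0.32 between cages and 0.14 between genotypes, where the members' medians were -0.82 and 0.074. Without the filter 26 genes were called higher and 7 lower between genotypes, 0 of them members. Between genotypes 3 members lay below 0 under total-count scaling, 2 once cage was a term and 2 to 7 with each library left out.

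Small genotype differences changed sign. With total counts they were 0.078 for Cish, 0.070 for Socs4, 0.046 for Socs7 and 0.021 for Ythdf2. With cage as a term they were 0.28 for Cish, 0.19 for Ptpn6, 0.030 for Socs1 and 0.022 for Socs2. Cish was at 0.010 with DESeq2, 0.0097 with its size factors in edgeR and 0.0027 at a mean CPM of at least 5. Within cage 1 the difference was 0.25 for Cish, 0.32 for Socs1, -0.17 for Ptpn2, 0.30 for Socs4 and 0.24 for Socs7, and within cage 2 it was 0.31 for Cish, 0.85 for Ptpn6, 0.64 for Socs2, -0.25 for Socs6 and 0.16 for Ythdf2. With each library left out the genotype values ran from -0.34 to 0.20 for Cish, -0.13 to 0.20 for Ptpn2, -0.39 to 0.20 for Ptpn6, -0.51 to 0.17 for Socs1, -0.45 to 0.12 for Socs2, -0.31 to 0.047 for Socs4, -0.28 to 0.0076 for Socs7 and -0.16 to 0.023 for Ythdf2. The cage values ran from -0.32 to 0.17 for Ptpn2, -1.27 to 0.068 for Ptpn6, -1.09 to 0.16 for Socs2, -0.58 to 0.034 for Socs4, -0.57 to 0.31 for Socs6 and -0.44 to 0.074 for Socs7. The cause of these changes was not tested.

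With the replicate number as a block, 0 genes were called, 224 had an unadjusted p under 0.05 (213 without the block) and the value of Ptpn6 was 9e-04. Same-numbered libraries deviated together for numbers 1 and 3 (correlation 0.41 and 0.547) and not for number 2 (-0.236). Numbers 1 and 3 are those whose libraries share a cage. Libraries of unlike number in the same cage also deviated together. The correlation was 0.459 for control replicate 2 with cKO replicate 1 and 0.266 for control replicate 3 with cKO replicate 2. Since the values follow the cage, they cannot show whether the numbers pair the samples. Leaving out control replicate 3 or cKO replicate 1 left 1 cage with a single genotype. The cage difference then rested on that genotype alone, with 1 of its libraries in the other cage. That library was assumed to vary like the others. The fit without mitochondrial genes and the interaction test were chosen after seeing the data. Counts of 80 to 162 per library limit Socs6 most.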
